A study of Mus musculus with 12 samples.

Results

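Cyclins are the regulatory subunits that switch on the cyclin-dependent kinases (CDKs), and their transcripts mark successive steps of the cell cycle. The 8 cyclin genes of the core cycle were taken by symbol from the deposited tables: Ccnd1, Ccnd2 and Ccnd3 (D type), Ccne1 and Ccne2 (E type), Ccna2 (A type), and Ccnb1 and Ccnb2 (B type). All 8 were found among the 23337 genes listed. RNA came from peeled urothelium, the epithelial lining of the urinary tract separated from the layers beneath, of mice labelled Stag2-WT or Stag2-KO. All animals had received a diet containing TMX (read here as tamoxifen) for a week and were taken 1 week or 1 month after that diet began, so the WT animals carry the treatment as well. Each of the 4 groups holds 3 libraries, and the labels name neither the Cre driver, nor the Stag2 alleles, nor the age or strain of the animals. The libraries read the 3′ ends of polyadenylated transcripts.

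D cyclins respond to growth signals in G1, bind CDK4 and CDK6, and start the phosphorylation of retinoblastoma proteins. E cyclins bind CDK2 at entry into S phase, cyclin A2 acts with CDK2 and CDK1 through S and G2 phase, and B cyclins with CDK1 drive mitosis. In resting cells DREAM, a complex of MuvB proteins with E2F4 or E2F5 and an RB-related pocket protein, represses the A, B and E type genes. The adult urothelium is a mostly resting epithelium, and the study's title links STAG2, a cohesin subunit, with DREAM and with urothelial quiescence.

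The genes lie at separate positions of GRCm38 (mm10, the build in the submitters' processing notes), by the GENCODE M21 annotation. Ccnd1 is at chr7:144929931-144939925, Ccnd2 at chr6:127125162-127152193, Ccnd3 at chr17:47505051-47599691, and Ccne1 at chr7:38097984-38107534. Ccne2 is at chr4:11191351-11204779, Ccna2 at chr3:36564865-36572150, Ccnb1 at chr13:100778650-100786570 and Ccnb2 at chr9:70407692-70421547. RefSeq also lists pseudogenes named after Ccnd3, Ccnb1 and Ccnb2, so reads of these 3 genes could be shared with a copy.

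RefSeq's promoter table (GRCm38.p6) held 4 of the 8 genes, and promoters are shown for these 4: Ccnb1, Ccnb2, Ccne1 and Ccnd3. The choice was set by what that table held and not by the expression results. Each run covers 150 bases before the annotated start and the first 10 after it, 5′ to 3′ along the gene: Ccnb1 at chr13:100786477-100786636 (minus strand), Ccnb2 at chr9:70421545-70421704 (minus strand), Ccne1 at chr7:38107481-38107640 (minus strand) and the start of Ccnd3 at chr17:47593317-47593476 (plus strand), which is 1 of 2 listed. Capitals mark CCAAT, the box bound by NF-Y, and the cell cycle homology region (CHR) written TTTGAA or TTCGAA, through which MuvB complexes bind.
Ccnb1: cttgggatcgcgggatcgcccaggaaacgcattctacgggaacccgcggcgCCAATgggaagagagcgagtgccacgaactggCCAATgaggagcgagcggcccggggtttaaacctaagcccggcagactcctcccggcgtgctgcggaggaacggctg
Ccnb2: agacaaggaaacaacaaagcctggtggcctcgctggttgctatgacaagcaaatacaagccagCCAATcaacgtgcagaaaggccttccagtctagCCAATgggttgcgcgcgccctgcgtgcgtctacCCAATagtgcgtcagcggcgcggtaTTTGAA
Ccne1: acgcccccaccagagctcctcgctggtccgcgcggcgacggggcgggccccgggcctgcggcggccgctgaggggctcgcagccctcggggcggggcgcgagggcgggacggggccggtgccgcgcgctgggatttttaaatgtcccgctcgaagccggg
Ccnd3: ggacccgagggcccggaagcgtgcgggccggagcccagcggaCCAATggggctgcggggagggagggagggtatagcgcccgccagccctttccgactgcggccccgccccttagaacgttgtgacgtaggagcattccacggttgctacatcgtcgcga

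The full 300-base windows, 250 before and 50 after the start, were searched on both strands, and the 3 motifs share no letters that overlap in these genes. Ccnb2 held 3 CCAAT boxes, at 87, 54 and 21 bases before the start, and a TTTGAA beginning 5 bases after it, with a second TTTGAA 167 bases before it. Ccnb1 held 2 CCAAT boxes, 99 and 67 bases before the start. The displayed Ccnd3 start held 1 CCAAT box, and Ccne1 none. At least 2 CCAAT boxes occurred in 11.7% of the 32851 promoter windows of the table, at least 3 in 3.37%, and a CHR in 19.2%. The E2F motif, searched as TTTGGCGC or TTTCCCGC, occurred in 1.56% of all windows and in none of these genes. A match describes letters and not binding, which was not measured here.

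Library totals ranged from 5580961 to 9497088 counts, and 3 counts corresponded to 0.305 to 0.631 CPM (the usual depth-scaled count, with library totals adjusted by TMM over all 12 libraries). At 1 week Stag2 itself averaged 125 ± 23.3 CPM in the WT libraries and 66.3 ± 6.38 CPM in the KO libraries (SD, n = 3), and at 1 month 57.7 ± 10.9 and 32.1 ± 11.1 CPM, with each KO library below each WT library of its time. Urothelial markers, among them uroplakins and keratins, were detected in every library, with a summed level between 10865 and 33568 CPM. KO replicate 3 of 1 week stood apart from its group, with the largest count differences to the other replicates. The Xist transcript had 6392 to 10406 counts in the 3 KO libraries of 1 week and 7764 in KO replicate 3 of 1 month, against at most 28 in the other 8. Y-linked genes showed the reverse, with 1360 to 2140 counts per WT library of 1 week and 0 to 4 per KO library of that time. KO replicate 3 of 1 month had 0 such counts, while the remaining libraries of that time had 632 to 1380. Read as sex, the 1-week KO libraries are female and the 1-week WT libraries male. Genotype, sex and Xist status therefore cannot be told apart at 1 week, and each 1-week difference below may reflect any of them. All libraries of 1 week are labelled batch 1, replicates 1 and 2 of 1 month in batch 2, and replicate 3 of each genotype of 1 month in batch 3, so time and batch cannot be told apart and times were not compared within a genotype. The labels give each library a number of its own without saying that it is an animal, so p-values measure the spread between these libraries, which may be technical.

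In the WT libraries the D cyclins supplied nearly all reads of these 8 genes. Their summed level was 742 ± 51.4 CPM (SD, n = 3) at 1 week and 716 ± 155 CPM at 1 month, whereas Ccna2, Ccnb1 and Ccnb2 together gave 1.15 ± 0.0993 and 2.80 ± 2.02 CPM. The latter rest on 9 to 11 counts a library at 1 week and 6 to 24 at 1 month. Values are reads from transcript ends and were not divided by transcript length. Ccnd2 made up 64.4% to 78.7% of the D cyclin counts in WT at 1 week and 60.7% to 81.1% at 1 month. Ccnd1 and Ccnd3 followed without a steady order, at 122 ± 27.7 and 100 ± 29.0 CPM at 1 week and 74.7 ± 24.6 and 109 ± 13.5 CPM at 1 month. Ccne2 came next at 2.26 ± 1.52 and 3.75 ± 1.02 CPM. The remaining 4 genes had at most 14 counts in any WT library, and their order was within the spread. Which cells gave these reads was not tested. Fibroblast and smooth muscle markers summed to 3457 to 5741 CPM in WT at 1 week and 10322 to 14141 CPM at 1 month. Urothelial markers summed to 12907 to 15884 CPM and 16687 to 33568 CPM.

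The first comparison asked which cyclins differed between KO and WT at 1 week. Ccnd2, Ccne1, Ccna2, Ccnb1 and Ccnb2 were higher in every KO library than in every WT library, Ccne2 exceeded every WT library in 2 of 3 KO libraries, and Ccnd1 and Ccnd3 overlapped. That is 5 of 8 cyclins, and 4 of the 7 with enough counts to be tested, against 13.3% of the 12754 genes tested; no cyclin lay below WT without overlap, against 13.4% of those genes. Under edgeR's quasi-likelihood test with Benjamini-Hochberg adjustment over all genes, 0 of the 7 cyclins tested passed an adjusted p of 0.05, where 0.0627% of all genes passed. An unadjusted p under 0.05 was reached by 5 of the 7 and by 15.5% of all genes, and DESeq2 called 4 of the 7 and 957 of all 12754. Ccna2 had too few counts for the filter on low counts and was not tested, and Ccne1, Ccnb1 and Ccnb2 passed that filter through the KO libraries, so these counts describe the members and support nothing further.

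**Figure D1:**
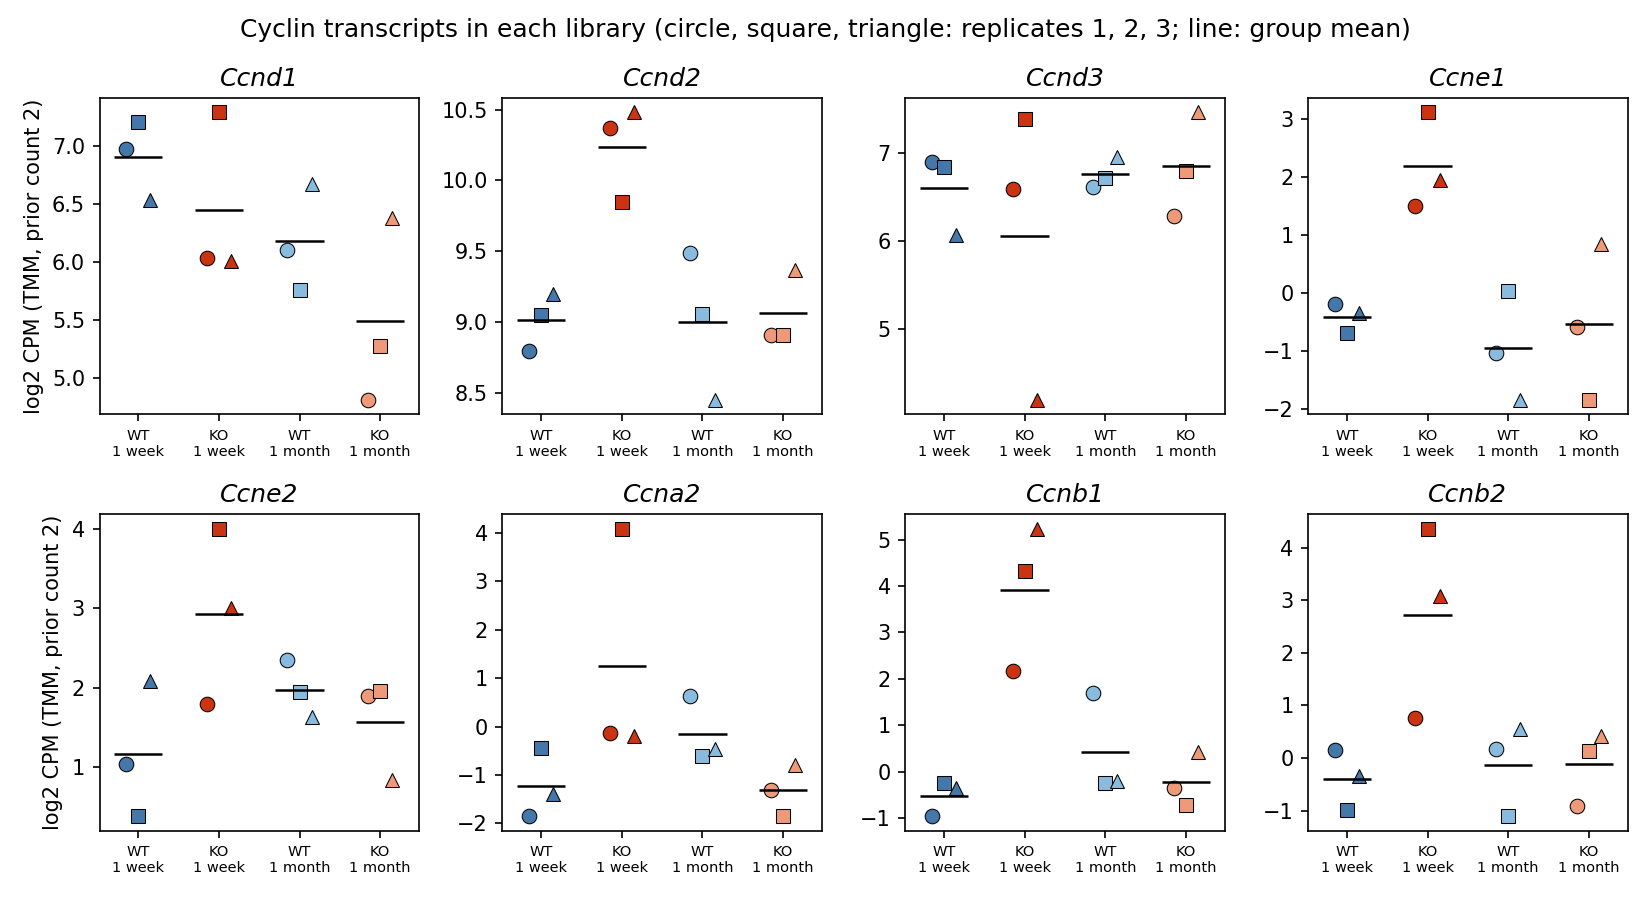
Level of each cyclin in every library, as log2 CPM with a prior count of 2 on the vertical axis (each panel has its own range), for the 4 groups of 3; symbols mark replicates and lines the group means. The red KO libraries of 1 week lie above the dark blue WT libraries for Ccnd2, Ccne1, Ccna2, Ccnb1 and Ccnb2, while 1 library alone carries the high value of Ccna2.

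Among the D cyclins, Ccnd2 stood apart from its relatives at 1 week. It had 444, 529 and 588 CPM in WT libraries and 1322, 923 and 1429 CPM in KO (replicates 1, 2 and 3). No KO library came down to the WT range. The log2 fold change was 1.26 (SE 0.31, edgeR adjusted p 0.139). Ccnd1, a target of growth factor and Wnt signals in many tissues, had 126, 148 and 92.6 CPM in WT, against 65.4, 156 and 64.2 CPM in KO. KO replicate 2 was the highest of the 6 and the other KO libraries the lowest, and the log2 fold change was -0.33 (SE 0.42, adjusted p 0.713). Without KO replicate 2 the Ccnd1 estimate was -0.91 (edgeR adjusted p 0.196). Ccnd3 had 119, 115 and 66.9 CPM in WT, against 96.6, 167 and 18.0 CPM in KO. Here KO replicate 2 was again highest and KO replicate 3 lowest by far, and the log2 fold change was -0.07 (SE 0.69, adjusted p 0.971). Without KO replicate 3 the Ccnd3 estimate turned to 0.38 (adjusted p 0.578). As a share of D cyclin counts, Ccnd2 took 89.1%, 74.0% and 94.6% in the KO libraries.

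Both E cyclins were low in WT and highest in KO replicate 2. Ccne1, which brings CDK2 to the start of replication, had 5, 3 and 5 counts in WT (0.594, 0.344 and 0.508 CPM) and 20, 78 and 18 counts in KO (2.56, 8.40 and 3.57 CPM). All KO libraries were above WT, and the log2 fold change was 3.32 (SE 0.65, edgeR adjusted p 0.109). Its adjusted p was 0.0460 without KO replicate 3, and 0.0777 to 0.507 when any of the other 5 libraries was left out. Ccne2, its close relative, had 1.78, 1.03 and 3.96 CPM in WT, against 3.20, 15.7 and 7.72 CPM in KO. WT replicate 3 exceeded KO replicate 1, so the groups overlapped, and the log2 fold change was 1.98 (SE 0.73, adjusted p 0.266).

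The B cyclins had the largest estimates of the 7 tested. Ccnb1, the main partner of CDK1 at entry into mitosis, had 2, 5 and 5 counts in WT, against 33, 183 and 189 counts in KO. That is 0.238, 0.573 and 0.508 CPM against 4.23, 19.7 and 37.4 CPM. The lowest KO library was above the highest WT library, and replicate 1 was well under the other two KO libraries. The log2 fold change was 5.49 (SE 0.90, edgeR adjusted p 0.0927), and the adjusted p was 0.0236 without KO replicate 1 and 0.0315 without KO replicate 3. It was 0.146 without KO replicate 2 and 0.464 to 0.507 without any of the WT libraries. Ccnb2, found mostly at the Golgi and able to drive mitosis with CDK1 too, had 7, 2 and 5 counts in WT, against 11, 188 and 41 counts in KO. The corresponding levels were 0.832, 0.229 and 0.508 CPM against 1.41, 20.2 and 8.12 CPM. KO replicate 1 was nearest to WT, at 11 counts against 7 in the highest WT library, and the log2 fold change was 4.23 (SE 1.02, adjusted p 0.138).

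Ccna2, which serves both DNA replication and entry into mitosis, depended on 1 library. It had 0, 4 and 1 counts in WT, against 5, 155 and 3 counts in KO, or 0.640, 16.7 and 0.594 CPM in KO. KO replicates 1 and 3 lay above the highest WT library (0.458 CPM), but their 5 and 3 counts stand beside 4 counts there, so that order is within counting error. With no filter on low counts its log2 fold change was 4.91 (edgeR adjusted p 0.212).

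**Figure D2:**
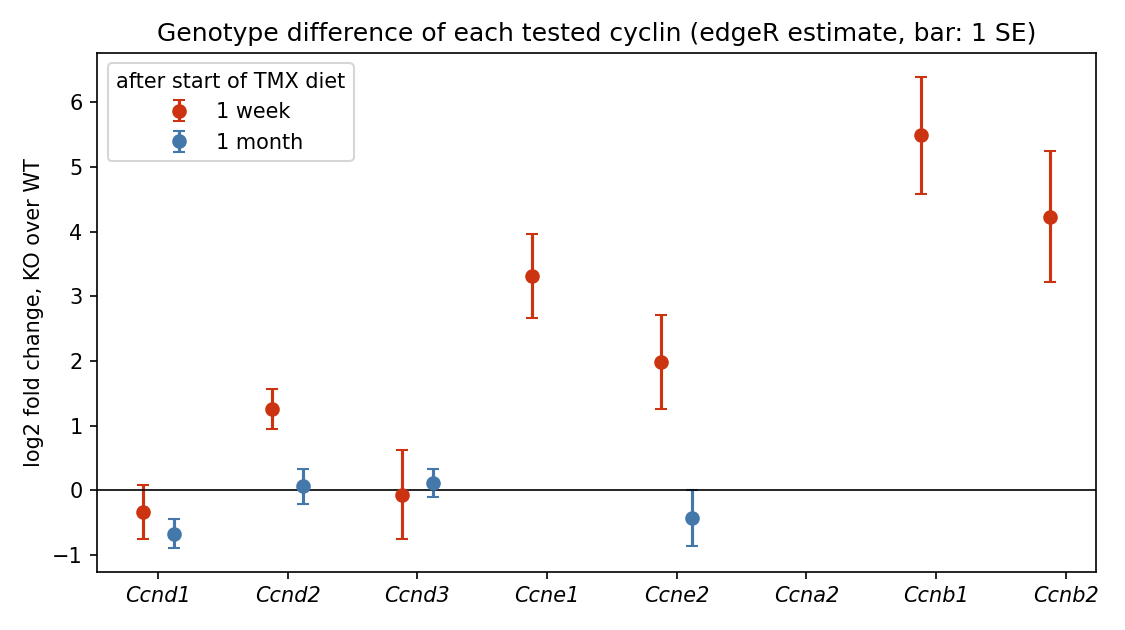
Log2 fold change of KO over WT from edgeR for each tested cyclin at 1 week (red) and 1 month (blue), with bars of 1 standard error; genes without a symbol were under the filter on low counts at that time. Estimates at 1 week run from -0.33 for Ccnd1 to 5.49 for Ccnb1, and those at 1 month from -0.67 to 0.11.

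Within the 3 KO libraries of 1 week the S and M phase cyclins came in different proportions. Of the summed counts of Ccna2, Ccnb1 and Ccnb2, Ccna2 took 10.2% (exact Clopper-Pearson 95% interval 3.40% to 22.2%) in replicate 1. In replicate 2 it took 29.5% (25.6% to 33.6%), and in replicate 3 1.29% (0.266% to 3.72%). Ccnb1 took 67.3% (52.5% to 80.1%), 34.8% (30.7% to 39.0%) and 81.1% (75.5% to 85.9%). Replicate 2 therefore held the 3 genes at similar counts, while replicate 3 held mainly Ccnb1, and the intervals of these libraries do not overlap for Ccna2 or Ccnb1. Intervals and floors cover counting error only: no molecular identifiers are named in the labels.

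**Figure D3:**
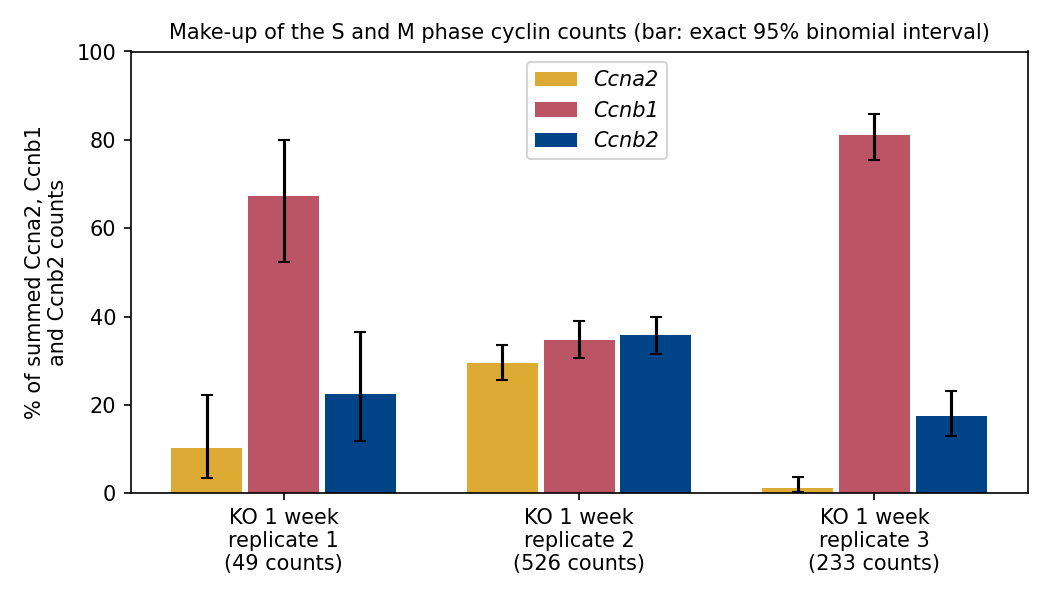
Share of Ccna2, Ccnb1 and Ccnb2 in their summed counts (vertical axis, percent) in the 3 KO libraries of 1 week, with exact 95% binomial intervals. Ccna2 takes 29.5% in replicate 2 and 1.29% in replicate 3, where Ccnb1 takes 81.1%.

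Contrasting the phases, the mean log2 CPM of Ccna2, Ccnb1 and Ccnb2 was set against that of the 5 G1 cyclins (D and E types) in each library. At 1 week the S and M phase mean was -0.88, -0.55 and -0.70 in WT and 0.93, 4.26 and 2.70 in KO. The G1 mean was 4.70, 4.56 and 4.71 in WT and 5.26, 6.33 and 5.13 in KO. Both were higher in each KO library than in any WT library, and the S and M phase mean had the wider gap. The difference between them averaged -5.37 ± 0.24 (SD, n = 3) in WT and -2.94 ± 1.21 in KO, so it was 2.43 log2 units higher in KO. The D cyclins by themselves overlapped, with means of 7.27 to 7.70 in WT and 6.90 to 8.18 in KO, and the E cyclins did not, with -0.15 to 0.87 in WT and 1.65 to 3.56 in KO. The members were chosen with earlier results known, so no p is given for these means.

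**Figure D4:**
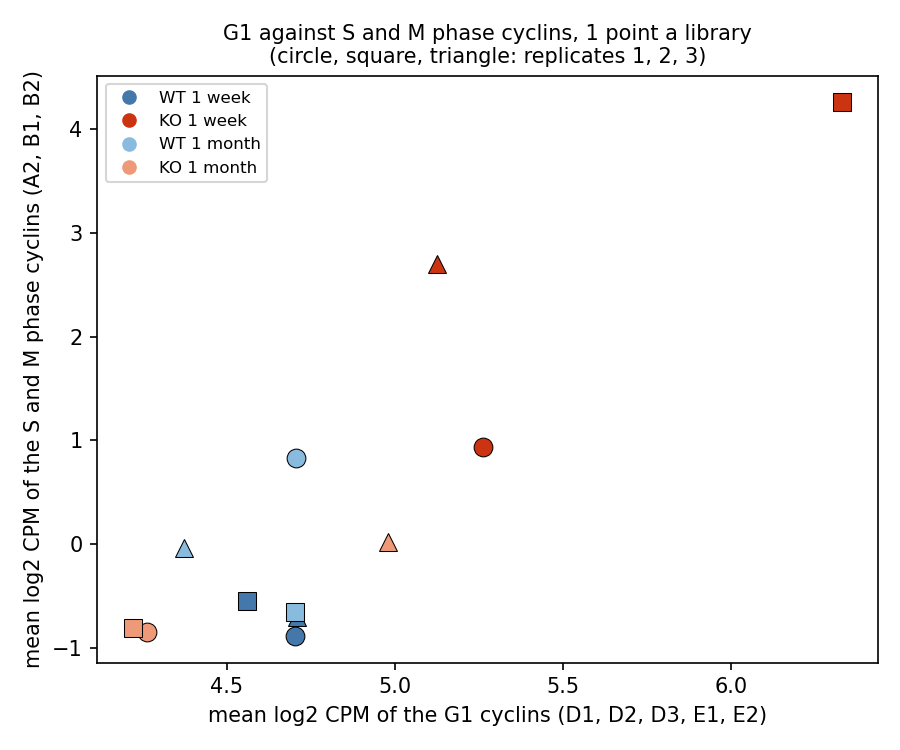
Mean log2 CPM of the 5 G1 cyclins (horizontal axis) against that of Ccna2, Ccnb1 and Ccnb2 (vertical axis), with 1 point for each of the 12 libraries. The 3 KO libraries of 1 week have the highest G1 means, 5.13 to 6.33, and the highest S and M phase means, 0.93 to 4.26; the other 9 reach at most 4.98 and 0.83.

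Markers of other cell types stood higher in the KO libraries of 1 week. Over the 30 listed markers of fibroblasts and smooth muscle, endothelium and leukocytes, the mean log2 CPM was 3.91 to 4.60 in WT and 4.77 to 5.40 in KO, without overlap. Of those tested, 11 of 12 fibroblast and smooth muscle, 6 of 6 endothelial and 8 of 8 leukocyte markers had a positive estimate, as had 51.5% of all genes. Of these markers 0 passed, where 0.0627% of all genes did. Among the 16 urothelial markers 5 had a positive and 11 a negative estimate, and 0 passed. Summed levels were 3457 to 5741 CPM in WT, against 5334 to 10761 CPM in KO for fibroblast and smooth muscle genes, 163 to 191 and 273 to 507 CPM for endothelial genes, and 166 to 280 and 313 to 649 CPM for leukocyte genes. The leukocyte markers Cd3g, Cd79a, Cd68 and S100a8 were at 0 in 1 or 2 of the 12 libraries. With this marker score as a covariate the log2 fold change of Ccnd2 was 1.64, of Ccne1 2.19, of Ccnb1 3.60 and of Ccnb2 1.19, each with an edgeR adjusted p of at least 0.887. In the same fit Ccne2 was 2.01, Ccnd1 -1.40 and Ccnd3 -0.78, and none passed. At 1 month the score was 4.87 to 5.40 in WT and 4.63 to 5.07 in KO, and no library of that time had more than 24 counts of the S and M phase cyclins. Beyond the fits with this score, what part these cells have in the cyclin levels was not tested. In such tissue more cells of a type and more RNA per cell cannot be told apart.

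At 1 month the genotypes were compared with batch as a covariate. No cyclin was higher in every KO library than in every WT library (6.42% of the 12139 genes tested were), and Ccna2 alone was lower without overlap (6.71% of genes tested, which do not include Ccna2). Only Ccnd1, Ccnd2, Ccnd3 and Ccne2 had enough counts to be tested. Of these 4, 0 passed edgeR's adjusted p of 0.05, while 2.22% of all genes passed. An unadjusted p under 0.05 was reached by 1 of the 4 and by 21.5% of all genes, and DESeq2 called 0 of the 4 and 781 of all 12139.

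Ccnd1 came closest at 1 month. It had 68.6 and 53.7 CPM in WT against 27.8 and 38.3 CPM in KO in batch 2, and 102 against 83.1 CPM in batch 3. The KO libraries were below the WT libraries of their batch, while the high level of batch 3 in both genotypes made the groups overlap. The log2 fold change was -0.67 (SE 0.23, edgeR adjusted p 0.120), with a log2 difference of -0.89 within batch 2 and of -0.29 within batch 3. In batch 2 alone it was -0.85 (adjusted p 0.0442), and leaving out WT or KO replicate 3, which leaves the genotype difference to batch 2, gave an adjusted p of 0.0389 or 0.0403. Leaving out any of the other 4 libraries gave 0.244 to 0.396, and dropping the batch covariate 0.729.

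The other D cyclins went opposite ways in the batches. Ccnd2 had 716, 533 and 349 CPM in WT, against 479, 481 and 661 CPM in KO, a log2 difference of -0.36 in batch 2 and of 0.92 in batch 3. Its combined log2 fold change was 0.06 (SE 0.27, edgeR adjusted p 0.917). Ccnd3 had 97.9, 105 and 124 CPM in WT, against 78.0, 111 and 176 CPM in KO, with -0.12 in batch 2, 0.51 in batch 3 and 0.11 (SE 0.22, adjusted p 0.797) combined. The KO library of batch 3 carries Xist and had the highest Ccnd2 and Ccnd3 of the 3 KO libraries; whether these go together was not tested, since batch 3 holds 1 library of each genotype. With Xist as a covariate the Ccnd2 estimate was -0.30 (edgeR adjusted p 0.504), and in batch 2 alone it was -0.34. Xist is high in KO replicate 3 alone at this time, so the covariate largely sets that library aside. This fit therefore cannot tell Xist from that library.

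Of the E, A and B cyclins of 1 month, all but Ccne2 were near the detection limit in both genotypes. Ccne2 had 4.84, 3.57 and 2.83 CPM in WT against 3.45, 3.62 and 1.52 CPM in KO, with a log2 estimate of -0.42 (SE 0.43, edgeR adjusted p 0.592). For Ccne1 the WT libraries gave 1, 4 and 0 counts, against 3, 0 and 10 in KO. For Ccna2 they gave 6, 2 and 3, against 1, 0 and 2. For Ccnb1 they gave 14, 3 and 4, against 4, 2 and 7, and for Ccnb2 4, 1 and 8, against 2, 5 and 7. Most of these values are at or close to the floor of 3 counts, and a difference between the genotypes was not detectable for these 4 genes at this depth. The S and M phase mean minus the G1 mean averaged -4.55 ± 0.75 (SD, n = 3) in WT and -5.03 ± 0.08 in KO. The KO libraries lay within the WT range, and the difference was -0.45 within batch 2 and -0.55 within batch 3.

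Whether the genotype differences themselves differed between the times was tested in all 12 libraries. Of 7 cyclins tested, 0 passed edgeR's adjusted p of 0.05 (0% of 13122 genes did). An unadjusted p under 0.05 was reached by 4 of the 7 and by 19.9% of all genes. DESeq2 called 2 of the 7, Ccnb1 and Ccnb2, and 917 of all genes. Ccne1, Ccnb1 and Ccnb2 had too few counts to be tested at 1 month and entered this fit through the KO libraries of 1 week. These counts therefore describe the members and support nothing further. At 1 month Ccnb1 had only 3 to 14 counts per WT library and 2 to 7 per KO library, too few to fix a KO effect. All KO libraries of 1 week carried Xist, whereas at 1 month only KO replicate 3 did. Time, batch and sex are thus mixed in this comparison. Within these limits, the estimated KO effect on Ccnb1 was 6.49 log2 units lower at 1 month than at 1 week (log2 difference -6.49, SE 1.34, edgeR adjusted p 0.0971). Its adjusted p was 0.0187, 0.0472 and 0.0348 without KO replicate 1, 2 or 3 of 1 week, 0.0627 to 0.304 without any of the other 9 libraries, and 0.268 with the marker score as a covariate. For Ccnb2 the difference was -4.26 (SE 1.39, adjusted p 0.160), for Ccne2 -2.41 (SE 0.88, adjusted p 0.183) and for Ccnd2 -1.19 (SE 0.45, adjusted p 0.190). Ccnd1 at -0.34, Ccnd3 at 0.19 and Ccne1 at -2.55 each had an adjusted p of at least 0.389.

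The CDK partners of these cyclins were read from a list of 4 genes. Of these, 0 of 4 tested at 1 week and 0 of 3 at 1 month passed (edgeR), where 0.0627% and 2.22% of all genes did. Each time 1 had an unadjusted p under 0.05, beside 15.5% and 21.5% of all genes. Cdk1, the partner of the A and B cyclins, had 0.119, 0.229 and 0.203 CPM in WT, against 2.43, 29.8 and 13.1 CPM in KO at 1 week, giving a log2 estimate of 6.26 (SE 1.06, adjusted p 0.0927). As for Ccnb2, KO replicate 2 was highest and replicate 1 lowest of the KO libraries. The WT values of Cdk1 were under the floor of 3 counts, and it passed the filter on low counts through the KO libraries. Its estimate and p therefore describe this gene and support nothing further. Cdk4 and Cdk6, the partners of D cyclins, had -0.17 (SE 0.57) and 0.64 (SE 0.54). Cdk2 had 0.11 (SE 0.47) at 1 week and 1.35 (SE 0.41, adjusted p 0.0934) at 1 month. The median over the 4 was 0.37 at 1 week, where that of all genes was 0.02.

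Regulators of CDK activity gave the only calls among the listed pathway genes. Of 8 genes tested at 1 month in the list of CDK-activating kinase, Cdc25 phosphatase, Wee1 kinase and Cks genes, 0 rose and 2 fell (edgeR), where 2.22% of all genes passed. Wee1, the kinase that holds CDK1 inactive, had 68.6, 58.8 and 31.9 CPM in WT, against 35.0, 19.4 and 10.2 CPM in KO, with a log2 estimate of -1.34 (SE 0.26, adjusted p 0.0250). The groups overlapped by 1 pair of libraries, the lowest WT and the highest KO, which are of different batches. Cdc25b, a phosphatase that acts against Wee1, had 57.5, 51.4 and 55.3 CPM in WT, against 19.4, 25.7 and 34.3 CPM in KO, at -1.06 (SE 0.23, adjusted p 0.0327), and its groups did not overlap. Both calls ended without the batch covariate (adjusted p 0.558 for Wee1 and 0.442 for Cdc25b) and without WT replicate 1 (0.0645 and 0.106), WT replicate 2 (0.0827 and 0.146) or KO replicate 2 (0.0816 and 0.0869). That of Cdc25b also ended without KO replicate 1 (0.125), by library size alone (0.0631) and with the marker score as a covariate (0.0531). Wee1 kept its call with the marker score, at -1.63 (edgeR adjusted p 0.0306). At the same time 7 of 7 leukocyte markers tested had a negative estimate and 4 fell, where 49.6% of all genes had a positive estimate and 2.22% passed. Their summed level was 683 to 1503 CPM in WT, against 365 to 449 CPM in KO. Negative estimates were had by 13 of 16 urothelial markers (1 passed), 7 of 12 fibroblast and smooth muscle markers (1 passed) and 2 of 6 endothelial markers (0 passed). Beyond the fit with the marker score, what part these cells have in the calls of Wee1 and Cdc25b was not tested. Cks1b, a CDK-binding adaptor, had the next smallest p, at 0.95 (SE 0.36, adjusted p 0.151). At 1 week 0 of 8 passed and 0 had an unadjusted p under 0.05, beside 0.0627% and 15.5% of all genes. Wee1 and Cdc25b then had 0.14 (SE 0.46) and -0.22 (SE 0.53).

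CDK inhibitors gave 0 calls among 7 genes tested at 1 week and 6 at 1 month, with 1 and 2 genes at an unadjusted p under 0.05, which 15.5% and 21.5% of all genes reached. Cdkn2c (p18, an inhibitor of CDK4 and CDK6) had 0.984 ± 0.440 CPM in WT, against 3.77 ± 2.09 CPM in KO at 1 week (SD, n = 3), at 1.96 (SE 0.63, edgeR adjusted p 0.215). Cdkn2c was higher in every KO library of 1 week than in every WT library, as were 13.3% of all genes. It passed the filter on low counts through those KO libraries. Cdkn2b and Cdkn1c were lower in every KO library of 1 week, at -1.53 (SE 0.66) and -1.38 (SE 0.60), each with an adjusted p of 0.326. Of all genes 13.4% lay below WT in this way. At 1 month Cdkn2a, which encodes p16 and p19ARF, had 0.451 ± 0.280 CPM in WT, against 2.32 ± 0.439 CPM in KO, at 2.33 (SE 0.64, adjusted p 0.0714). Its WT values, 0.421, 0.188 and 0.745 CPM, were near the floor of 3 counts, which was 0.447 to 0.631 CPM in these libraries. Cdkn2a passed the filter on low counts through the KO libraries. Cdkn1b had 0.98 (SE 0.37, adjusted p 0.161). Cdkn2a and Cdkn1c were higher in every KO library of 1 month than in every WT library, as were 6.42% of all genes. The Cdkn1c estimate was 0.44 (SE 0.25, adjusted p 0.338), opposite in sign to that of 1 week.

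Genes that destroy cyclins gave 0 calls among 15 tested at 1 week and 16 at 1 month, with 3 and 1 at an unadjusted p under 0.05, beside the same 15.5% and 21.5% of all genes. Ube2c, the ubiquitin-conjugating enzyme of the anaphase-promoting complex, had 2.14, 0.917 and 0.812 CPM in WT, against 6.02, 40.4 and 5.74 CPM in KO at 1 week, at 3.77 (SE 0.94, edgeR adjusted p 0.141). Its high value was in KO replicate 2, as for Ccna2, and it passed the filter on low counts through the KO libraries. Fzr1, an activator of that complex, had 1.34 (SE 0.40, adjusted p 0.190), and Anapc1, its largest subunit, had 48.8, 44.4 and 235 CPM in KO, high in replicate 3, against 35.3 to 40.6 in WT. At 1 month Cdc20, the activator in mitosis, and Ube2c were lower in every KO library, at -1.24 (SE 0.54, adjusted p 0.208) and -0.94 (SE 0.49, adjusted p 0.284), as were 6.71% of all genes.

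Regulators of cyclin transcription gave 0 calls among 17 genes tested at 1 week, where 5 had an unadjusted p under 0.05 (15.5% of all genes), and 0 among 15 at 1 month, where 1 did (21.5% of all genes). The median log2 fold change was 0.44 at 1 week, beside 0.02 over all genes, and -0.08 at 1 month, beside -0.01. Mybl2 (B-Myb), which joins MuvB in cycling cells, had 1.55, 1.83 and 3.55 CPM in WT, against 4.87, 7.97 and 12.3 CPM in KO at 1 week, at 1.86 (SE 0.54, edgeR adjusted p 0.181). Foxm1, an activator of B cyclin genes, had 2.05 (SE 0.62, adjusted p 0.195), and Rbl1 (p107), an RB-related pocket protein, had 1.25 (SE 0.38, adjusted p 0.195). All 3 were higher in every KO library of 1 week than in WT, as were 5 of the 17 and 13.3% of all genes.

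Among 12 other cyclins tested at 1 week and 11 at 1 month 0 were called, where 0.0627% and 2.22% of all genes were. Of these cyclins 1 and 0 had an unadjusted p under 0.05, beside 15.5% and 21.5% of all genes. Ccnf, a cyclin that works in a ubiquitin ligase and not through a CDK, had 0.357, 1.03 and 0.609 CPM in WT, against 1.28, 12.3 and 7.53 CPM in KO at 1 week, at 3.39 (SE 0.87, edgeR adjusted p 0.152). Ccnf passed the filter on low counts through these KO libraries. The median of the other cyclins was -0.02 at 1 week. Of the 4 cycling cell markers, Mki67 had 2.61, 2.86 and 1.83 CPM in WT, against 25.9, 188 and 153 CPM in KO at 1 week, at 5.66 (SE 0.79, adjusted p 0.0844), and Top2a had 4.28 (SE 0.66, adjusted p 0.0927). Neither Mcm2 at 0.87 (SE 0.46) nor Pcna at 0.36 passed an unadjusted p of 0.05. At 1 month 0 of the 4 markers passed and 2 had an unadjusted p under 0.05, beside 2.22% and 21.5% of all genes. The 2 were Mcm2 at 1.12 (SE 0.41, adjusted p 0.143) and Mki67 at -1.44 (SE 0.54, adjusted p 0.160), in opposite directions. Mki67 had 25.9, 9.20 and 3.58 CPM in WT, against 3.84, 3.62 and 4.40 CPM in KO. WT replicate 1 was thus the highest, and WT replicate 3 lay below every KO library. Mcm2 had 1.47, 3.00 and 7.45 CPM in WT, against 6.01, 6.91 and 10.6 CPM in KO, and overlapped too.

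The genes most like each cyclin other than Ccne2 were found by the root mean square difference between log2 CPM profiles centred over the 12 libraries, among genes of at least 5 CPM on average. The libraries share batches and depth, so these values describe the 12 libraries only. Nearest to Ccnb1 were Mki67 (0.59), Ttk (0.60) and Top2a (0.66), where the median gene was at 2.05. Ccnb2 was nearest to Cenpf (0.52), Gfpt2 (0.57) and Racgap1 (0.65), and Ccna2 to Birc5 (0.54), Cdca8 (0.65) and Ube2c (0.69). Ccne1 was nearest to Car3 (0.75), Postn (0.79) and Cdca8 (0.79). Ccnd1 lay by Gfpt1 (0.32), Hk2 (0.32) and 1600029D21Rik (0.36), Ccnd3 by Tmx1 (0.17), Pip5k1a (0.20) and Psmb4 (0.21), and Ccnd2 by Kdm6a (0.23), Gria4 (0.28) and Gdap2 (0.28). Kdm6a is X-linked, and the 3 libraries of 1 week with high Ccnd2 are those with Xist, which are also the KO libraries of that time. At 1 month the highest Ccnd2 was in WT replicate 1, at 716 CPM with 4 counts of Xist. KO replicate 3 of that time had 661 CPM with 7764 counts of Xist. Whether Ccnd2 and Xist go together was not tested. The measure is small for genes that vary little, so a pair is read against the SD of its own profiles. Ccnb1 and Ccnb2 differed by 0.98, under their SDs of 1.96 and 1.57, whereas Ccnd1 and Ccnd3 differed by 0.90, above theirs of 0.72 and 0.81.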

How the data were processed

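Raw counts per gene were used as the authors deposited them, in 1 table for each time; no normalization had been applied. Bowtie, TopHat, HTSeq, DESeq2 and the build mm10 are named in the submitters' processing notes; their versions, order and annotation are not given in the sources used here. Per the labels' protocols the libraries are QuantSeq 3′ forward libraries in sense orientation. Columns were matched by library name; for WT replicate 3 of 1 month the number in the title differs from that name. Replicates were numbered in accession order. No pair of replicates agreed within sampling noise (chi-square per degree of freedom of at least 9.10).

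KO was compared with WT by edgeR 4.0.16 (R 4.3.3; quasi-likelihood, robust, TMM, default filter on low counts, two-sided, Benjamini-Hochberg over all genes) at each time, with batch as a covariate at 1 month, and as an interaction in all 12 libraries. Standard errors are the absolute log2 fold change over the square root of F. Printed CPM and log2 CPM (prior count 2) were computed with TMM over the 12 libraries. Alternatives used DESeq2 1.42.0 and other settings. Of each pathway list, up to 3 genes with the smallest p at a time, called genes and those compared with them are named; the named cyclins are all 8. The members and lists were chosen with earlier results of these data known. The genes most like Ccne2 are not reported here.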

Additional observations from a re-analysis of the deposited data

Results flagged for a closer look

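Ccna2 went opposite ways at the 2 times: each KO library was above each WT library at 1 week, by 5.79 CPM on average, and below each WT library at 1 month, by a mean difference of -0.551 CPM. The difference between the times was not tested for this gene in the interaction fit, which its counts were too low to enter. With no filter on low counts the interaction was -6.92 log2 units (edgeR adjusted p 0.194). The 1-week mean rests on 155 counts in KO replicate 2, and the 1-month groups on 2 to 6 counts a library in WT and 0 to 2 in KO. Whether the 2 times differ cannot be read from so few counts.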

How the results depend on the processing

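The number of cyclins called at 1 week was 0, and it was 1 with no filter on low counts (Ccnb1), 4 under DESeq2 (Ccnd2, Ccne1, Ccnb1 and Ccnb2) and 0 to 2 with 1 library left out. At 1 month it was 0, and 1 (Ccnd1) in batch 2 alone, with 0 to 1 when 1 library was left out. For the difference between times it was 0, and 1 with no filter, 2 under DESeq2 and 0 to 1 with 1 library left out. With the marker score of other cell types as a covariate, 0 cyclins were called in each comparison.

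Some estimates changed sign without passing a test. Ccnd2 at 1 month, 0.06, was -0.24 with the marker score, -0.30 with Xist, -0.34 in batch 2 alone and -0.35 to 0.29 with 1 library left out. At 1 month the Xist fit, batch 2 alone and leaving out a replicate 3 are not separate alternatives. Each largely takes KO replicate 3 out of the genotype difference. Ccnd3 at 1 month, 0.11, was -0.064 in batch 2 alone and -0.072 to 0.35 with 1 left out. Ccnd3 at 1 week was -0.80 to 0.38 with 1 left out. In the difference between times Ccnd1 was 0.64 with the marker score and -0.55 to 0.25 with 1 left out, and Ccnd3 was -0.29 to 0.93. The cause was not tested.

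The S and M phase minus G1 difference kept its sign under all alternatives run at each time, at 1.99 to 3.12 (1 week) and -0.89 to -0.15 (1 month) with 1 library left out. At 1 week, 2.43, it was 3.27 with D cyclins alone as G1 cyclins, 2.81 with E cyclins counted with the S and M phase, and 2.95 with a prior count of 0.5, so its size depends on the grouping and on the prior. At 1 month, -0.48 with an SD within groups of 0.53, it was -0.41, -0.17 and -0.81 under these alternatives, in that order. Its S and M phase counts were few there, so a kept sign at 1 month does not show a difference. In an alternative chosen after seeing the data, 5 cyclins were above WT without overlap at 1 week by library size alone, as with TMM. All genes called were 8 at 1 week (62 with no filter, 957 under DESeq2, 0 with the marker score, 0 to 320 with 1 left out), 269 at 1 month (556 by library size, 1276 with no filter, 781 under DESeq2, 746 with the marker score, 0 with no batch covariate, 1406 with Xist, 1474 in batch 2, 45 to 1522 with 1 left out) and 0 in the difference (137 with no filter, 917 under DESeq2, 0 to 440 with 1 left out). No paired analysis was possible because replicate numbers were given in accession order and pair no libraries.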
